A study of Mus musculus with 12 samples.

Results

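The prostaglandin genes described here are 9 of 10 named for the pathway, out of 18193 genes measured on 12 arrays: Pla2g4a, Ptgs2, Ptges, Ptges2, Tbxas1, Hpgds, Hpgd, Ptger2 and Ptger4. They were chosen by name, for their place in the synthesis, breakdown and reception of prostaglandins. Each was represented by the brightest of its probe sets that name a single gene, a probe set being the group of short probes that Affymetrix arrays use for one transcript. The tenth, Ptgs1, which encodes the cyclooxygenase COX-1, was not analysed here, because no single-gene probe set for it was named in the annotation used. The 9 genes had 14 probe sets in all.

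The arrays came from primary cultures of whole bone marrow of female C57BL/6 mice aged 6 weeks. Cells labelled c-kit+ stem cells and cells labelled CD44+ stromal cells were each profiled after 1 week with 17β-estradiol (17βE) at 1 nM and, as the control, from cultures not treated with it. The 4 groups held 3 arrays each. The labels call the arrays replicates but name no separate mice or cultures, so the p-values reflect only how far these samples spread, which may be technical. Per the labels, estradiol was given to the whole marrow cultures. Values are log2 intensities normalized by the authors with RMA, and a difference of 1 on this scale is a doubling. Levels of different genes come from different probes and were not ranked against each other. The values of Y-linked genes, which female cells lack, serve only as a rough guide to background.

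Prostaglandins are lipid signals made on demand from arachidonic acid. A phospholipase frees the acid from membranes, a cyclooxygenase turns it into the unstable intermediate PGH2, and separate synthases convert PGH2 into PGE2, PGD2 or thromboxane. PGE2 acts on a family of EP receptors, of which EP2 and EP4 raise cyclic AMP, and it is inactivated by a dehydrogenase. In bone marrow PGE2 is known to act on blood-forming stem cells, on macrophages and on bone-forming and bone-resorbing cells.

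The fractions were checked against their own markers. Kit, the gene for c-kit, lay between 3.79 and 4.22 on the 12 arrays, did not differ between the fractions in control cultures (difference -0.04, 95% interval -0.29 to 0.22), and lay within the range of 7 Y-linked genes. The Y-linked values ran from 3.04 to 6.37, with Sry at 6.13 to 6.37 and Zfy2, the next brightest, at 4.04 to 4.54. Cd44 was between 11.76 and 12.46 in both fractions. The macrophage list of 10 genes, with Csf1r from 13.86 to 14.11, was high everywhere: its mean was 11.9 to 12.04 in c-kit+ control and 11.66 to 11.82 in CD44+ control arrays. The 8 stromal markers averaged 5.91 to 6.43 in c-kit+ control and 7.37 to 8.5 in CD44+ control arrays, and 5 of them (Col1a1, Col1a2, Col3a1, Cxcl12 and Pdgfrb) were lower in the c-kit+ fraction (limma, adjusted p under 0.05). In the same control arrays C1qb, Fcgr1 and Mrc1 of the macrophage list were higher in the c-kit+ fraction. Cd74 and H2-Ab1 of 8 dendritic cell genes and Ebf1 of 6 lymphoid genes were lower there (limma, adjusted p under 0.05). All 8 mast cell genes and all 5 endothelial genes stayed at or below the highest Y-linked value. Of 6 stem cell genes, Kit and Myb did, and Cd34, Flt3, Gata2 and Meis1 exceeded it on some arrays. Of 8 neutrophil genes, S100a8, Ngp and Mmp8 exceeded it on some or all arrays, and the others did not. Cd34 read 5.89 to 8.52. Its difference, c-kit+ minus CD44+, was -1.28 in control cultures without passing and -1.43 in estradiol cultures (limma, adjusted p = 0.0318). c-kit+ estradiol array 1 stood apart among the mast cell genes, with Cpa3 at 6.31 against 3.73 to 4.19 on the other 11 arrays, and Cma1 and Ms4a2 were also highest there, at 5.16 and 3.95. The names c-kit+ and CD44+ below are those of the labels, and Kit was not above the Y-linked genes in the fraction named for it.

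Because Ptgs2 was the prostaglandin gene that rose, its promoter is shown beside those of the 2 prostaglandin genes with the next largest positive differences, Ptges and Ptger4. The sequences are from RefSeq on GRCm38.p6, run 5′ to 3′ on the gene's strand from 250 bases before to 30 bases after the annotated start, and all 9 genes matched the table by symbol. Capitals mark 4 of the motifs searched on both strands: the cyclic AMP response half-site CGTCA, the E-box CACGTG, the C/EBP palindrome TTGCGCAA and the AP-1 site TGANTCA.
Ptgs2, chr1:150099781-150100060, plus strand: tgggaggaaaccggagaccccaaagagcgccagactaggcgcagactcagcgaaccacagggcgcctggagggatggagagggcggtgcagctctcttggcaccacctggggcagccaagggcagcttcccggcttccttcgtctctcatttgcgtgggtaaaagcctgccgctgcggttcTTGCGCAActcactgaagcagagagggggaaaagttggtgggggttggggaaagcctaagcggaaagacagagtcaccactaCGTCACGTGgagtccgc
Ptges, chr2:30903268-30903547, minus strand: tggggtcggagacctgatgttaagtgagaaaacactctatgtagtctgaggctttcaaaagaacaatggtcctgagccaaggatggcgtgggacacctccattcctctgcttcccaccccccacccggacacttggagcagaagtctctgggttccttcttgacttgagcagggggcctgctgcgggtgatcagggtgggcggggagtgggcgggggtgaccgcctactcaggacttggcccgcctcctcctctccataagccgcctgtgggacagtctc
Ptger4, chr15:5244158-5244437, minus strand: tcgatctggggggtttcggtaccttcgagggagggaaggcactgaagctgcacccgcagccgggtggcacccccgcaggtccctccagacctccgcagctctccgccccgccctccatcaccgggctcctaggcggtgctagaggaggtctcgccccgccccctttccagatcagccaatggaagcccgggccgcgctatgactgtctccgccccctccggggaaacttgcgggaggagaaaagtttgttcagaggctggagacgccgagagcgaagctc

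The Ptgs2 window held 1 half-site CGTCA and 1 E-box CACGTG, which overlap in a single run. Counted from the annotated start as 1, they begin at positions 14 and 17, and no other start was examined. It also held the palindrome TTGCGCAA, starting 69 bases before the annotated start. Of 32851 RefSeq windows of the same length, 19.9% held CGTCA, 6.79% CACGTG and 0.18% TTGCGCAA. The windows of Ptges and Ptger4 held none of these letters and no AP-1 site, which 7.46% of windows held. Among the other members, Ptges2 held the same E-box, starting 77 bases before its start, and Tbxas1 an AP-1 site, starting 61 bases before. The full estrogen response element GGTCANNNTGACC was in 0.067% of windows and in none of the 9 genes' windows. Its half-site GGTCA, present in 38.5% of windows, was left in lower case. It was in the windows of Ptges, Tbxas1 and Pla2g4a, and not in those of Ptgs2 or Ptger4. It started 33 bases before the start in Ptges, 151 in Tbxas1, and 205 and 133 in the 2 windows of Pla2g4a. These matches describe letters in a window and say nothing of binding.

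Ptgs2, which encodes the inducible cyclooxygenase COX-2, was higher with estradiol in both fractions. In c-kit+ cells the 3 control arrays read 9.83, 10.06 and 10.23 and the 3 estradiol arrays 11.18, 11.53 and 11.6. In CD44+ cells the control arrays read 10.29, 10.08 and 9.78 and the estradiol arrays 11.34, 11.56 and 11.29. Every estradiol array stood above every control array, with a gap of about 1 log2 unit between the groups in each fraction.

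The difference in Ptgs2 was 1.40 (SE 0.16, 95% interval 1.06 to 1.73) in c-kit+ cells, a 2.63-fold rise (limma, adjusted p = 0.00269, n = 3 against 3). It was 1.35 (SE 0.16, 1.01 to 1.69) in CD44+ cells, a 2.55-fold rise (limma, adjusted p = 0.00219). Averaged over both fractions it was 1.37 (SE 0.11, 2.59-fold, limma, adjusted p = 4.52e-05). The effects in the 2 fractions differed by 0.05, with a 95% interval of -0.43 to 0.53 and an adjusted p of 1.0 (limma). Fitted on the 6 c-kit+ arrays alone, the same difference of 1.40 had an adjusted p of 0.0633 (limma) and no longer passed. The call held in each of the 12 fits that left out 1 array, in each fraction and in the average. Without c-kit+ estradiol array 1, which was high in Cpa3, the difference in c-kit+ cells was 1.52 (adjusted p = 0.00358, limma).

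**Figure D1:**
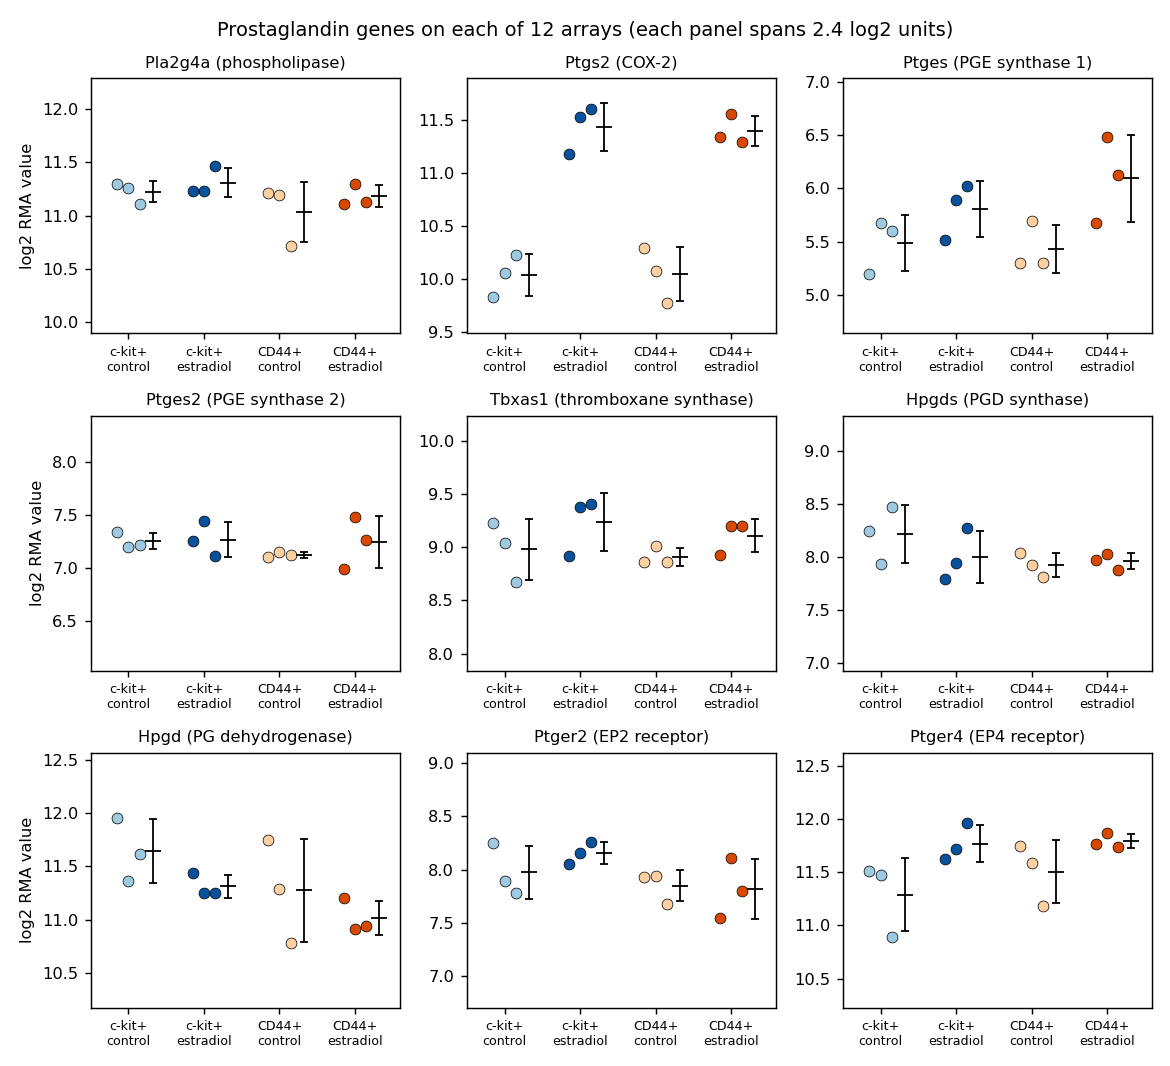
Log2 RMA values of the 9 prostaglandin genes on each of the 12 arrays, by group; points are arrays in replicate order, and the bar beside them is the mean with 1 SD (n = 3). Every panel spans the same range, and Ptgs2 is the only gene whose estradiol arrays lie above all control arrays in both fractions: 11.18 to 11.6 against 9.83 to 10.23 in c-kit+ cells, and 11.29 to 11.56 against 9.78 to 10.29 in CD44+ cells.

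A second, far dimmer probe set for Ptgs2 (1417263_at) moved the same way. It read 4.53, 4.75 and 4.72 in c-kit+ control arrays and 5.27, 5.53 and 5.93 with estradiol. In CD44+ cells it read 4.72, 5.15 and 4.87 in control arrays and 5.52, 6.36 and 5.36 with estradiol. The groups did not overlap in either fraction, although these levels do not exceed the highest Sry value, 6.37. Its differences of 0.91 and 0.84 did not pass over all 34945 single-gene probe sets (limma, adjusted p = 0.323 and 0.399), and the average of 0.87 did (adjusted p = 0.0292).

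Of the 9 genes, 1 passed in c-kit+ cells, Ptgs2, while 0.176% of all 18193 genes passed as higher. In CD44+ cells 1 of 9 passed, against 0.28% of all genes as higher, and in the average 1 of 9, against 0.863%. The median difference of the 9 genes was 0.18 in c-kit+ and 0.14 in CD44+ cells, beside 0.02 and 0.01 over all genes. Without Ptgs2 the median of the other 8 genes was 0.14 and 0.13. The estradiol arrays lay above all control arrays for Ptgs2 and Ptger4 in c-kit+ cells and for Ptgs2 in CD44+ cells, and this was so for 5.34% and 6.75% of all genes.

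**Figure D2:**
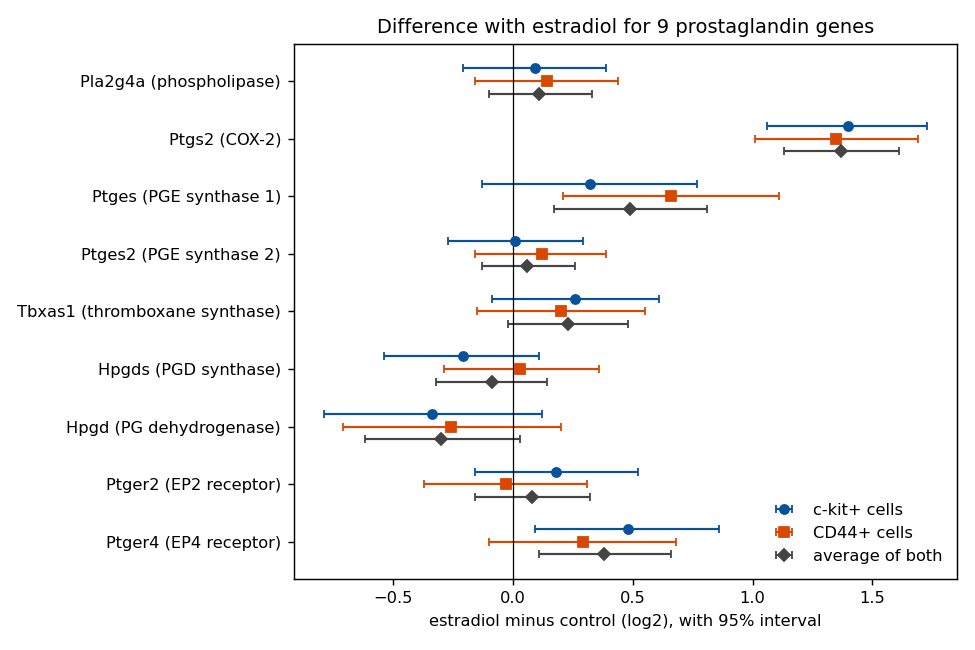
Estradiol minus control on the log2 scale for each prostaglandin gene, with 95% intervals from limma, in c-kit+ cells (circles), CD44+ cells (squares) and averaged (diamonds). Ptgs2 stands apart at 1.40 and 1.35, and the other 8 genes lie between -0.34 and 0.66.

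Pla2g4a encodes cytosolic phospholipase A2, which frees arachidonic acid from membranes, the first step of the pathway. It read 11.3, 11.26 and 11.11 in c-kit+ control arrays and 11.23, 11.23 and 11.47 with estradiol. CD44+ cells gave 11.21, 11.19 and 10.71 in control arrays and 11.11, 11.3 and 11.13 with estradiol. The groups overlapped in both fractions, with differences of 0.09 (95% interval -0.21 to 0.39) and 0.14 (-0.16 to 0.44) that did not pass (limma, adjusted p = 0.999 and 0.95). The upper bounds of these intervals lie under the lower bounds for Ptgs2. Under quantile normalization the difference in CD44+ cells changed sign.

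Ptges encodes the inducible, microsomal PGE2 synthase, which works downstream of COX-2. In c-kit+ cells it read 5.19, 5.67 and 5.6 in control arrays and 5.51, 5.89 and 6.02 with estradiol, a difference of 0.32 (SE 0.21, limma, adjusted p = 0.999). CD44+ cells gave 5.3, 5.69 and 5.3 in control arrays and 5.67, 6.48 and 6.13 with estradiol, a difference of 0.66 (SE 0.21, 95% interval 0.21 to 1.11, adjusted p = 0.513). One estradiol array of the CD44+ cells, at 5.67, lay just below the highest control array, at 5.69.

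A fit of all 12 arrays blocked on replicate number gave Ptges the same 0.66 in CD44+ cells (limma, adjusted p = 0.0495). Ptges passed there beside Ptgs2, and the averaged difference of 0.49 went from an adjusted p of 0.255 to 0.0197 (limma). The CD44+ arrays met the criterion for pairing, but the c-kit+ arrays and the fractions in control cultures, which share the block, did not. The block is therefore not a paired fit of the CD44+ arrays alone. The other probe sets for Ptges read 4.72 to 5.74 (1449449_at, differences 0.31 and 0.37) and 4.74 to 5.4 (1449450_at, differences 0.18 and 0.18). All of these differences are positive, and none passed without the block. Apart from the 1 value of 6.48, none of these levels exceeds the highest Sry value, 6.37.

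Ptges2, the other membrane-bound PGE2 synthase measured, was between 6.99 and 7.48 on all arrays. Its group means were 7.26 and 7.27 in control and estradiol c-kit+ cells and 7.12 and 7.24 in CD44+ cells. The differences of 0.01 (95% interval -0.27 to 0.29) and 0.12 (-0.16 to 0.39) did not pass, and the first changed sign under quantile normalization and median centring.

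The remaining synthases draw PGH2 away from PGE2. Tbxas1, thromboxane A synthase, read 9.23, 9.04 and 8.67 in c-kit+ control arrays and 8.92, 9.38 and 9.41 with estradiol. In CD44+ cells it read 8.86, 9.01 and 8.86 in control arrays and 8.93, 9.2 and 9.2 with estradiol. The groups overlapped, and the differences of 0.26 (95% interval -0.09 to 0.61) and 0.20 (-0.15 to 0.55) did not pass (limma, adjusted p = 0.999 and 0.949). Hpgds, the hematopoietic PGD2 synthase, had differences of -0.21 (-0.54 to 0.11) and 0.03 (-0.29 to 0.36), with all arrays between 7.79 and 8.47 and overlapping groups. The second of these changed sign under quantile normalization.

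Hpgd encodes 15-hydroxyprostaglandin dehydrogenase, the enzyme that inactivates PGE2, and it was the gene with the largest negative difference of the 9. In c-kit+ cells it read 11.96, 11.36 and 11.62 in control arrays and 11.44, 11.25 and 11.25 with estradiol. In CD44+ cells it read 11.75, 11.29 and 10.78 in control arrays and 11.2, 10.91 and 10.94 with estradiol. The control arrays were spread widely and overlapped the estradiol arrays in both fractions. The differences of -0.34 (95% interval -0.79 to 0.12) and -0.26 (-0.71 to 0.2) did not pass (limma, adjusted p = 0.999 and 0.949), nor did the average of -0.30 (adjusted p = 0.784). The second probe set (1419906_at) gave -0.17 and -0.28.

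Ptger4 encodes the EP4 receptor of PGE2. In c-kit+ cells it read 11.51, 11.47 and 10.89 in control arrays and 11.62, 11.72 and 11.96 with estradiol, so that the groups did not overlap. In CD44+ cells the control arrays read 11.75, 11.59 and 11.18 and the estradiol arrays 11.77, 11.87 and 11.74, the lowest of which fell just below the highest control. The differences of 0.48 (SE 0.18, 95% interval 0.09 to 0.86) and 0.29 (SE 0.18, -0.1 to 0.68) did not pass (limma, adjusted p = 0.895 and 0.949), nor did the average of 0.38 (adjusted p = 0.346). The second probe set for Ptger4 (1421073_a_at), which read 4.39 to 5.47, gave 0.44 and 0.35.

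Ptger2, the EP2 receptor, read 8.25, 7.89 and 7.78 in c-kit+ control arrays and 8.05, 8.16 and 8.26 with estradiol. In CD44+ cells it read 7.93, 7.94 and 7.68 in control arrays and 7.54, 8.11 and 7.8 with estradiol. The differences of 0.18 (95% interval -0.16 to 0.52) and -0.03 (-0.37 to 0.31) lay within the spread between arrays.

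**Figure D3:**
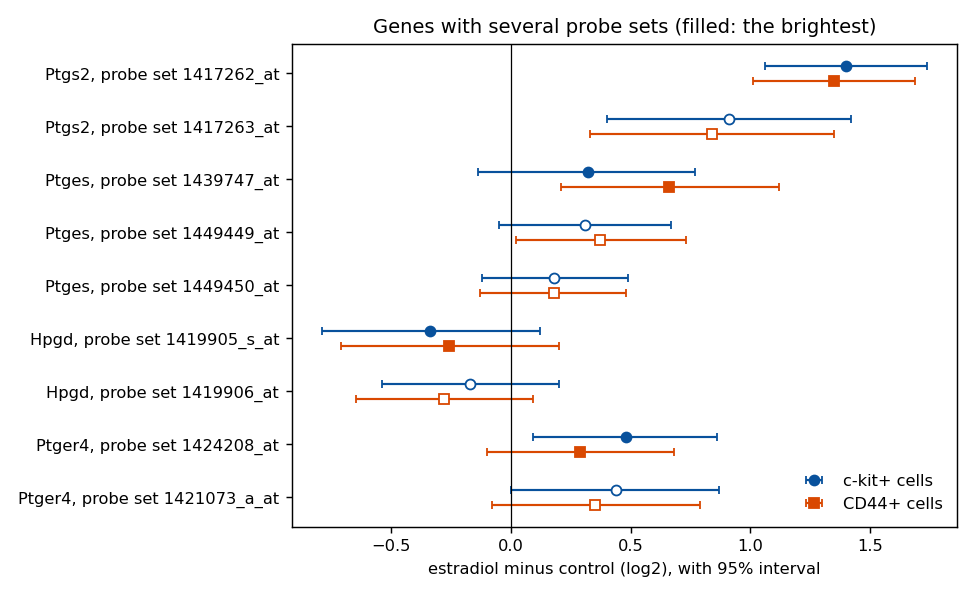
Estradiol minus control on the log2 scale, with 95% intervals from limma over 34945 single-gene probe sets, for the 4 prostaglandin genes with more than 1 probe set; filled symbols are the brightest probe set, circles c-kit+ cells and squares CD44+ cells. All probe sets of a gene lie on the same side of 0, with Ptgs2 at 1.40 and 0.91 in c-kit+ cells and Hpgd at -0.34 and -0.17.

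The estradiol effect was compared between the fractions for each gene. The difference of the effects, c-kit+ minus CD44+, ran from -0.35 for Ptges to 0.21 for Ptger2, and 0 of 9 genes passed, as did 0.0% of all genes (limma; 296 of 18193 genes had an unadjusted p under 0.05, and 0 of the 9). For Ptges the 95% interval was -0.98 to 0.29, so that its difference between the fractions was not told apart from 0.

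The fractions themselves were then compared. In control cultures the difference, c-kit+ minus CD44+, ran from -0.22 for Ptger4 to 0.38 for Hpgd, and 0 of 9 genes passed (limma, lowest adjusted p = 0.429, with 0 at an unadjusted p under 0.05), while 2.3% of all genes did. In estradiol cultures it ran from -0.29 for Ptges to 0.34 for Ptger2. Again 0 of 9 passed (limma, lowest adjusted p = 0.52, 0 at an unadjusted p under 0.05), against 2.65% of all genes. Of all 18193 genes, 2467 in control and 1778 in estradiol cultures had an unadjusted p under 0.05 (limma). Ptgs2 differed by less than the spread between arrays, by -0.01 (95% interval -0.35 to 0.33; positive after median centring) in control and by 0.04 (-0.3 to 0.38) in estradiol cultures. In bulk RNA, fewer cells of a type and less RNA per cell cannot be told apart. The 3′ minus 5′ difference of control probe sets is a sign of RNA quality and amplification. For Gapdh it was 4.23 to 6.17 in c-kit+ and 2.83 to 4.31 in CD44+ arrays. For Actb it was 2.34 to 4.68 in c-kit+ and 1.52 to 2.14 in CD44+ arrays, without overlap. The part of RNA quality in these comparisons was not tested.

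The arrays of the fractions did not overlap for 1 of the 9 genes in control cultures, Ptges2, and for 1 in estradiol cultures, Hpgd, beside 15.7% and 18.2% of all genes. For Ptges2 the c-kit+ arrays, at 7.2 to 7.34, lay above the CD44+ arrays, at 7.1 to 7.15, with a difference of 0.13 that did not pass (limma, adjusted p = 0.729). For Hpgd all 3 c-kit+ estradiol arrays, at 11.25 to 11.44, lay above the 3 CD44+ estradiol arrays, at 10.91 to 11.2, with a difference of 0.30 (95% interval -0.15 to 0.75) that did not pass (limma, adjusted p = 0.778). Its second probe set gave 0.37 in control and 0.48 in estradiol cultures, also without passing (adjusted p = 0.379 and 0.307). Hpgds stood 0.29 higher in c-kit+ than in CD44+ control arrays (95% interval -0.04 to 0.61, adjusted p = 0.429), with overlapping groups.

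Around these genes, 30 of 33 listed genes of eicosanoid synthesis, transport and reception were measured. With estradiol 0 of 30 passed in c-kit+ cells (lowest adjusted p = 0.177, limma; 1 had an unadjusted p under 0.05) and 0 of 30 in CD44+ cells (lowest adjusted p = 0.52; 4 had an unadjusted p under 0.05). Of all 18193 genes, 814 in c-kit+ and 978 in CD44+ cells had an unadjusted p under 0.05 (limma). Averaged over both fractions 1 of 30 rose, while 0.863% of all genes did, and 0 fell. The median was -0.02 beside 0.01 over all genes. The one that rose was Ptgir, the receptor of prostacyclin, a prostaglandin that relaxes vessels.

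Ptgir read 5.68, 5.86 and 5.55 in c-kit+ control arrays and 6.25, 6.35 and 6.22 with estradiol. In CD44+ cells it read 5.63, 5.93 and 5.91 in control arrays and 6.08, 6.48 and 6.14 with estradiol, so the groups did not overlap in either fraction. The average difference was 0.49 (SE 0.09, limma, adjusted p = 0.0211), from 0.58 in c-kit+ and 0.41 in CD44+ cells. Apart from the 1 value of 6.48, none of these levels exceeds the highest Sry value, 6.37, so no fold is given. The call was lost without c-kit+ estradiol array 1 or 2 or CD44+ estradiol array 2, with adjusted p of 0.0521, 0.0779 and 0.0599.

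Other eicosanoid genes with the smallest p-values did not pass. In c-kit+ cells these were Ptgr2, a prostaglandin reductase, at -0.25, and Ltb4r1, a leukotriene B4 receptor, at 0.20 (limma, adjusted p = 0.999 for both). In CD44+ cells they were Ptger1, the EP1 receptor, at -0.30, and Mgll, monoacylglycerol lipase, at -0.32 (adjusted p = 0.714 and 0.853). In the average, Ptger1 was at -0.13 and Mgll at -0.15 (adjusted p = 0.889 and 0.901).

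Between the fractions, 1 of 30 eicosanoid genes differed in control and 1 of 30 in estradiol cultures, both times Slco2a1, which encodes the prostaglandin transporter that takes PGE2 into cells. Of all genes 2.3% and 2.65% passed, so the count is near that of genes at large. It read 5.95, 6.14 and 6.11 in c-kit+ control arrays and 8.02, 7.01 and 7.51 in CD44+ control arrays. With estradiol it read 6.23, 5.82 and 6.16 in c-kit+ and 8.46, 7.52 and 7.66 in CD44+ arrays. The 6 c-kit+ arrays all lay below the 6 CD44+ arrays, and none of the c-kit+ values exceeds the highest Sry value, 6.37.

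The difference in Slco2a1 was -1.45 (SE 0.26, 95% interval -2.0 to -0.9, limma, adjusted p = 0.00779) in control and -1.81 (SE 0.26, -2.36 to -1.26, adjusted p = 0.00146) in estradiol cultures. If the c-kit+ values are background, these measured sizes are lower limits. With the mean of its probe sets in place of the brightest, it was -0.57 and -0.70, still past the threshold (adjusted p = 0.0391 and 0.0107). The stromal markers moved with it, as given above: 5 of 8 were lower in c-kit+ control arrays, and 6 of 8 in c-kit+ estradiol arrays, where their mean was 6.0 to 6.9 against 7.86 to 8.94. Markers on other lists passed too: in estradiol cultures C1qb and Mrc1 were higher and H2-Ab1, Ebf1 and Cd34 lower in c-kit+ arrays (limma). The part of cell types and of RNA quality in the Slco2a1 difference was not tested. Ptgr2 at 0.53 and Prxl2b, a prostamide and prostaglandin F synthase, at 0.65 were the next genes in control cultures and did not pass (adjusted p = 0.0507 and 0.0728). Ptger3, the EP3 receptor of PGE2, named after its values were seen, was lower in c-kit+ than in CD44+ arrays without overlap in both cultures. Its differences of -0.72 in control and -0.83 in estradiol cultures did not pass (limma, adjusted p = 0.132 and 0.0759).

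**Figure D4:**
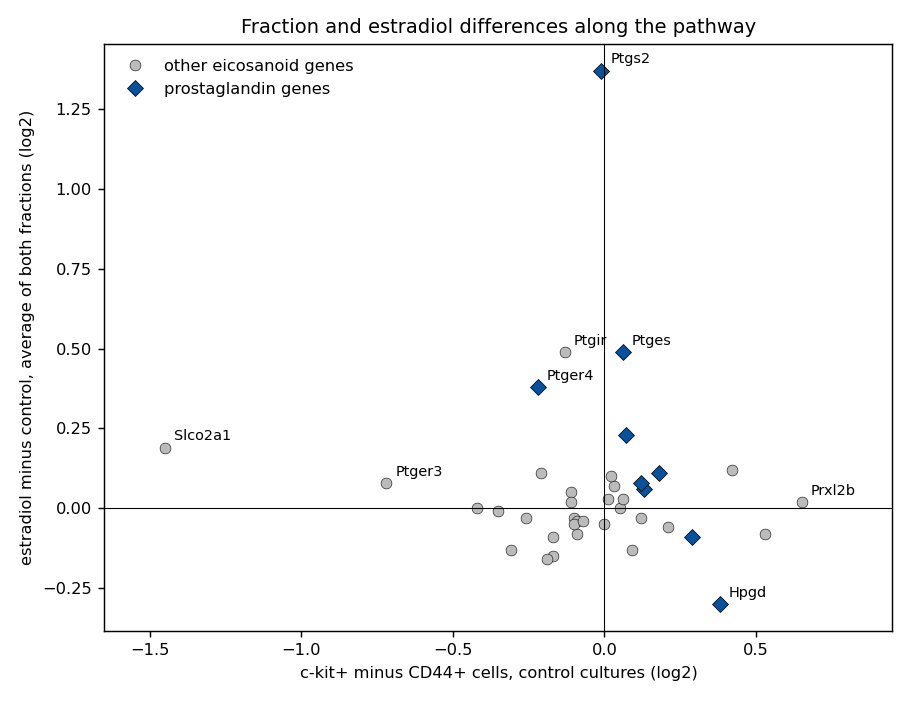
Each point is a gene: the horizontal axis is c-kit+ minus CD44+ control arrays and the vertical axis estradiol minus control averaged over both fractions, both on the log2 scale; diamonds are the 9 prostaglandin genes and circles 30 other eicosanoid genes. The axes share the control arrays. Ptgs2 lies at -0.01 and 1.37, and Slco2a1 at -1.45 and 0.19.

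Markers of other cell types were read beside the rise of Ptgs2. With estradiol 0 of 10 macrophage genes passed in either fraction. An unadjusted p under 0.05 (limma) was found for 1 in each fraction, beside 814 and 978 of all 18193 genes. The mean level of the macrophage genes was 11.97 to 12.26 in estradiol c-kit+ arrays and 11.8 to 11.97 in estradiol CD44+ arrays. The control ranges are given above. In the average Cd14, a receptor for bacterial lipopolysaccharide, rose by 0.43 (SE 0.08, limma, adjusted p = 0.0148), the 1 gene of 10 that passed. Of 8 dendritic cell genes, Cd83 alone passed: it rose by 1.23 in CD44+ cells (SE 0.21, adjusted p = 0.0266) and by 1.05 in the average (adjusted p = 0.00299), and its 0.86 in c-kit+ cells did not pass (adjusted p = 0.27). The median of the 8 genes was 0.13 in c-kit+ and -0.01 in CD44+ cells, and Ccr7, Xcr1 and Siglech stayed at or below the highest Y-linked value. Cd74, at 6.6 to 8.8, and H2-Ab1, at 8.63 to 10.66, lay above that value on all arrays, and Itgax and Flt3 on some. With estradiol 0 of 8 stromal genes passed. An unadjusted p under 0.05 (limma) was found for 1 in each fraction and 2 in the average. Of all 18193 genes it was found for 814, 978 and 1302. The stromal differences were positive for 6 of 8 in c-kit+ cells, with a median of 0.30, and for 8 of 8 in CD44+ cells, with a median of 0.36. Over all 18193 genes 10030 and 9676 were positive, with medians of 0.02 and 0.01. The largest stromal difference was that of Vcam1, an adhesion molecule, at 0.83 and 1.12 (limma, adjusted p = 0.999 and 0.59). The part of a change in cell types in the Ptgs2 difference was not tested.

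The genes whose values followed Ptgs2 most closely over the 12 arrays were Zc3h12c (Pearson r = 0.98), Gpr85 (0.972) and Cxcl10 (0.967). The arrays fall into control and estradiol groups, and all points share those groups. Cxcl10, a chemokine induced by interferon, went from a mean of 9.89 to 11.45 in c-kit+ cells and from 9.65 to 11.23 in CD44+ cells, rising by 1.56 and 1.57 (limma, adjusted p = 0.000887 and 0.000669). Zc3h12c rose by 0.96 and 1.15 (adjusted p = 0.0156 and 0.00333). Gpr85, an orphan receptor, was 0.67 higher in c-kit+ cells without passing (adjusted p = 0.0807) and rose by 0.82 in CD44+ cells (adjusted p = 0.0155).

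Among the prostaglandin genes themselves, Ptgs2 correlated over the 12 arrays with Ptges at 0.75 and with Ptger4 at 0.69, and with Hpgd at -0.39. Ptges and Hpgd correlated at -0.59. Pla2g4a and Ptger2, which showed little difference with estradiol, correlated at 0.74. These values describe 12 arrays in 4 groups that share one normalization, and they were not tested.

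The nearest genes of the other members were, in order, Gm6150 (0.924), Gm20559 (0.923) and Src (0.91) for Ptges, and Zfp719 (0.942), Srgn (0.936) and Lrrk1 (0.918) for Ptger4. For Hpgd they were Tpd52 (0.932), Sugp2 (0.922) and Fam217b (0.918), and for Pla2g4a they were Flvcr1 (0.968), Mcur1 (0.947) and Zfand6 (0.937). Tbxas1 was nearest to Vrk3 (0.911), Wdr27 (0.896) and Stard3 (0.89), and Hpgds to Tor4a (0.92), Ipp (0.909) and Stradb (0.895). Ptges2 was nearest to Zswim7 (0.86), Vill (0.847) and Ano9 (0.835), and Ptger2 to Tmem205 (0.882), Folr2 (0.878) and Mib2 (0.857). Each is a Pearson r over 12 arrays and the highest of 18193 genes, and is given as a rank only.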

How the data were processed

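RNA from 12 samples was measured on Affymetrix mouse arrays. The deposited values are log2 intensities that the authors made with RMA, per the submitters' processing notes, which name no version. Array medians ran from 4.75 to 4.84, no arrays held identical values, and precision is limited by how many arrays there were. Of 45101 probe sets, 34945 named 1 gene, 932 several and 9160 none, and 64 were controls. Each gene's brightest probe set over all arrays gave 18193 genes, with no filter.

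The test was that of limma 3.58.1 (R 4.3.3): 1 mean per group over 12 arrays, empirical Bayes, and Benjamini-Hochberg adjustment over all genes at 0.05. The script was tested on simulated data. Of simulated differences of 0.5, it recovered 30% in c-kit+ cells, 32% in CD44+ cells and 20% between the fractions in control cultures. False calls made up 1.86%, 4.82% and 7.24% of the calls. Equal replicate numbers were taken to pair arrays where all 3 correlations of deviations from group means exceeded 0.1. The CD44+ groups met this (0.303, 0.368 and 0.322), as did the fractions in estradiol cultures (0.447, 0.192 and 0.312). The c-kit+ arrays (0.345, 0.092 and 0.253) and the fractions in control cultures (0.175, 0.122 and -0.208) did not.

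The genes and lists were chosen with earlier results of these data known. Other genes are named when they passed or were among the 3 of smallest p in the eicosanoid list (with estradiol, or between the fractions in control cultures), or the 3 of highest correlation with a member. Single marker genes above background, Cpa3, Cma1, Ms4a2 and Ptger3 were named after their values were seen. The alternatives tried were the choice of probe set, a filter on dim genes, normalization, array weights, variance moderation, the arrays fitted, the replicate block and leaving out arrays. Python 3.11.15 with matplotlib 3.10.9 and pandas 2.3.3 made the plots and tables.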

Additional observations from a re-analysis of the deposited data

How the results depend on the processing

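Of 741 recomputed values of single genes, 707 kept their direction and side of the threshold, 26 changed sign, 6 lost a call and 2 gained one. No sign changed among calls. Array weights gave 55 genes in c-kit+ cells (33 in the fit reported), 1405 in CD44+ cells (53), 523 in the average (173), and 1058 and 779 between the fractions in control (418) and estradiol cultures (483); they put a weight of 9.38 on CD44+ control array 2. The replicate block gave 62, 101 and 272 genes with estradiol and 693 between the fractions in control cultures, and 2 members, Ptgs2 and Ptges, in CD44+ cells and in the average; it changed no other call of a member. The 6 arrays of a comparison alone gave 2 genes and 0 members in c-kit+ cells and 196 genes between the fractions in control cultures. Genes at or above the median level gave 250 between the fractions in estradiol cultures, from fewer genes tested; Ptges was not among them. Otherwise the cause was not tested. Leaving out 1 array gave 10 to 45 genes in c-kit+ cells (10 and 21 without c-kit+ estradiol 2 and 3), 22 to 97 in CD44+ cells (29 or 30 without CD44+ control 2 or 3 or CD44+ estradiol 2, 22 without CD44+ estradiol 3, 97 without c-kit+ control 3) and 104 to 275 in the average (104 to 110 without c-kit+ estradiol 2 or CD44+ estradiol 2 or 3, 275 without c-kit+ control 3). Between the fractions it gave 221 to 456 in control cultures (238 without c-kit+ control 1, 221 without CD44+ control 3) and 269 to 594 in estradiol cultures (269 without c-kit+ estradiol 2, 273 without CD44+ estradiol 1).

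Sign changes were all in differences near 0 that did not pass. Quantile normalization gave -0.00597 for Ptges2 in c-kit+ cells, and -0.0268 for Pla2g4a and -0.0418 for Hpgds in CD44+ cells. Median centring gave -0.0117 for Ptges2 in c-kit+ cells and 0.0927 for Ptgs2 between the fractions in control cultures. The mean of probe sets gave -0.0657 for Ptgs2 between the fractions in estradiol cultures. Leaving out 1 array gave -0.0748 to 0.0902 for Ptges2 in c-kit+ cells. In CD44+ cells it gave -0.00251 to 0.25 for Ptges2, -0.0235 to 0.23 for Pla2g4a, -0.0247 to 0.0901 for Hpgds and -0.18 to 0.10 for Ptger2. For Ptgs2 it gave -0.0718 to 0.18 for the difference of effects, and -0.14 to 0.11 and -0.0403 to 0.17 between the fractions in control and estradiol cultures.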
